A study of Mus musculus with 8 samples.

Results

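The cereblon ligase and the FKBP12 gene were followed in mouse embryonic stem cells as 10 genes taken by name from the 55291 genes in each table of counts. They are parts and partners of the ligase that dTAG-13 recruits, namely the receptor Crbn, the adaptor Ddb1, the scaffolds Cul4a and Cul4b, the RING protein Rbx1, the activator Nedd8, the deneddylase subunit Cops5, the ubiquitin-conjugating enzymes Ube2g1 and Ube2d3, together with Fkbp1a, which encodes FKBP12, the protein the tag was made from. All 10 genes passed the expression filter and were among the 16371 genes tested. By edgeR's quasi-likelihood test, none of them differed between dTAG-13 and DMSO or between the lines at a threshold of 0.05 on the adjusted p, and none had an unadjusted p under 0.05 in any of 5 comparisons.

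RNA was sequenced from 8 libraries in 4 groups of 2. DHX35-dTAG cells and GPATCH1-dTAG cells each received either 200 nM dTAG-13 or DMSO, the solvent, over 4 h. Both lines carry the FKBP12 degron in the named gene, inserted by a PITCh knock-in with puromycin selection and picking of single colonies, and the labels do not say which colony was sequenced, so the line and the clone cannot be told apart. E14 is the cell name in the labels, R1 the one in the growth protocol, and untagged cells were not analysed here.

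dTAG-13 is a molecule with 2 heads, of which one binds the tag and the other binds cereblon. Cereblon is the substrate receptor of a cullin-RING ligase in which DDB1 joins the receptor to a CUL4 scaffold, and RBX1, at the far end of the scaffold, recruits a ubiquitin-loaded enzyme. Attachment of NEDD8 to the cullin switches the ligase on and the COP9 signalosome removes it, so the degradation of a tagged protein rests on all of these parts being present. In many cell types cereblon-directed degraders stop working when single parts of this ligase are lost.

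The sequences below show the places in the mouse genes where the degron system meets the endogenous proteins. They are coding sequence of the GENCODE M21 annotation (GRCm38), written 5′ to 3′ on the coding strand, with the codon of interest in capitals.
Fkbp1a, chr2:151557409-151557411 on the plus strand, exon 3 of 5: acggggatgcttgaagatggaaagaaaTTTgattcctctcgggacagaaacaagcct
Crbn, chr6:106781095-106781097 on the minus strand, exon 11 of 11: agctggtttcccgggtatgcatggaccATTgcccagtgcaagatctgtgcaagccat
In Fkbp1a, the capitals mark codon 37 of 108, a phenylalanine in the ligand pocket. The tag carries a valine at this residue, and the tag-binding head of dTAG-13 was built to fit the pocket with the valine rather than that of normal FKBP12. In Crbn, the capitals mark codon 391 of 445, an isoleucine in the domain that binds thalidomide. Human cereblon has a valine there, and the isoleucine is known to keep mouse cells from degrading several proteins that thalidomide-like drugs send to human cereblon, while bivalent degraders still work in mouse cells. The tables hold counts per gene and no sequence of the reads, so neither codon was read in these libraries, and whether reads of the tag were counted on Fkbp1a was not tested.

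Total counts were between 12014203 and 14994173 per library, and 2 abundant non-coding genes (Gm23935 and CT010467.1) took 1.272% to 20.86% of them. The 10 genes together held 25862 to 38042 counts, a range of 1.47-fold. In DMSO they held 29522 and 35930 counts in DHX35-dTAG cells and 35959 and 26742 in GPATCH1-dTAG cells, and in dTAG-13 25862 and 26073 and 38042 and 33980, so libraries of both lines lay near the low end. Levels are given as CPM, counts put on a common library size by TMM scaling, which compares libraries but not genes of unequal length. The stem cell genes Pou5f1, Nanog and Sox2 were at 228 CPM or more in every library. Summed over their lists, 5 fibroblast genes were at 10.68 to 14.98 CPM, 5 primitive endoderm genes at 5.237 to 7.548 CPM and 5 trophectoderm genes at 42.4 to 70.93 CPM, with Col1a2, Col3a1 and Elf5 at 2 counts or fewer. Of these lists, the trophectoderm sums were at 42.4 to 57.17 CPM in DHX35-dTAG cells and at 66.71 to 70.93 CPM in GPATCH1-dTAG cells, and their part in the results was not tested. In bulk RNA, fewer cells of a type and less RNA per cell cannot be told apart. The labels do not say whether the 2 libraries of a group came from separate cultures, so p-values measure only the spread between these libraries, which may be technical.

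One library stood apart, replicate 1 of the DMSO group of DHX35-dTAG cells. Its mean correlation with the other libraries over all genes tested was 0.9756, against 0.988 to 0.9897 for the other 7, and mitochondrial mRNAs took 0.2715% of its counts against 0.7576% to 1.131%. Across 12776 protein-coding genes, its deviation from the others had a Spearman correlation of -0.264 with exon length, against -0.088 to 0.162 for the other libraries. Values are from all 8 libraries unless they are said to be without it, and many of those that it moved are also given without it.

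The mRNAs of both targets were measured in every library. Dhx35, which encodes a DEAH-box helicase, was at 72.1 and 80.2 CPM in DMSO and at 84.6 and 79.3 CPM in dTAG-13 in DHX35-dTAG cells, and at 58.0 and 58.3 CPM in DMSO and 59.2 and 64.8 CPM in dTAG-13 in GPATCH1-dTAG cells. Gpatch1, which encodes a G-patch protein, was at 25.6 and 23.4 CPM and at 23.1 and 23.7 CPM in DHX35-dTAG cells, against 7.30 and 6.88 CPM in DMSO and 7.05 and 7.19 CPM in dTAG-13 in GPATCH1-dTAG cells. Each targeted mRNA thus differed between the lines, by a log2 difference (GPATCH1-dTAG minus DHX35-dTAG) of -0.40 for Dhx35 (standard error 0.067, adjusted p = 0.041) and -1.75 for Gpatch1 (standard error 0.085, adjusted p = 3.6e-05). dTAG-13 acts on the tagged protein, so these mRNA levels do not check the depletion. The study followed both tagged proteins by western blot over 4 h of dTAG-13 and reports effective degradation.

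Crbn, the receptor that dTAG-13 binds, was among the lowest of the 10. In DHX35-dTAG cells it was at 28.6 and 36.5 CPM in DMSO and at 29.5 and 35.9 CPM in dTAG-13, and in GPATCH1-dTAG cells at 34.5 and 35.6 CPM in DMSO and at 33.9 and 38.2 CPM in dTAG-13. Replicate 1 was lower than replicate 2 in all 4 groups, as it also was for Cul4b, Ube2g1 and Ube2d3 and for 12.3% of all genes tested, and the groups overlapped in each line. On dTAG-13 its log2 fold change was 0.01 (95% confidence interval -0.32 to 0.34) with DHX35 tagged and 0.04 (-0.28 to 0.37) with GPATCH1 tagged, so a change of more than 1.29-fold in either direction lay outside both intervals. The first value was -0.16 (-0.40 to 0.08, adjusted p = 0.99) without the library that stood apart. Behind these values stand 346 to 569 counts per library, the smallest numbers among the 10 genes. The Crbn locus (chr6:106780201-106800077, minus strand) shares 144 exon bases with Trnt1 on the other strand, a gene at 32.28 to 43.34 CPM, and the strand setting of the counting is not given in the sources used here.

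Ddb1, the adaptor that links cereblon and other receptors to the cullins, had the highest CPM of the 10. It was at 863 and 868 CPM in DMSO and at 894 and 843 CPM in dTAG-13 in DHX35-dTAG cells, and at 904 and 907 CPM in DMSO and at 949 and 929 CPM in dTAG-13 in GPATCH1-dTAG cells. The dTAG-13 libraries of GPATCH1-dTAG cells lay above those in DMSO, by a log2 fold change of 0.05 (-0.12 to 0.23, adjusted p = 1), while in DHX35-dTAG cells the groups overlapped (0.00, -0.17 to 0.18). Ddb1 was also the only one of the 10 for which the 4 libraries of one line lay above the 4 of the other, with 867.1 ± 21.3 CPM (SD, n = 4) in DHX35-dTAG cells and 922.2 ± 21.0 CPM (SD, n = 4) in GPATCH1-dTAG cells. This log2 difference of 0.09 (-0.04 to 0.21) did not pass the test (adjusted p = 0.47), and groups of 4 that did not overlap were found for 11.6% of all genes tested.

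Of the scaffolds, which hold the adaptor at one end and RBX1 at the other, Cul4a was low and even. It was at 42.5 and 42.3 CPM in DMSO and at 42.0 and 40.2 CPM in dTAG-13 in DHX35-dTAG cells, and at 43.9 and 37.8 CPM in DMSO and at 44.8 and 42.1 CPM in dTAG-13 in GPATCH1-dTAG cells. The log2 fold change was -0.04 (-0.28 to 0.19) in DHX35-dTAG cells, where the groups did not overlap, and 0.09 (-0.14 to 0.32) in GPATCH1-dTAG cells, where they did.

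Cul4b, its X-linked paralog, varied more. Its level was 211 and 314 CPM in DMSO and 277 and 331 CPM in dTAG-13 in DHX35-dTAG cells, and 311 and 340 CPM in DMSO and 318 and 344 CPM in dTAG-13 in GPATCH1-dTAG cells. The low value of 211 CPM belonged to the library that stood apart. With it, the log2 fold change in DHX35-dTAG cells was 0.21 (-0.17 to 0.59, adjusted p = 0.73), and without it -0.05 (-0.24 to 0.15, adjusted p = 0.99).

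Rbx1, the RING protein that brings the conjugating enzyme to the cullin, was nearly constant in 7 libraries and high in 1. It was at 136 and 95.1 CPM in DMSO and at 92.7 and 92.9 CPM in dTAG-13 in DHX35-dTAG cells, and at 88.6 and 91.4 CPM in DMSO and at 88.3 and 93.1 CPM in dTAG-13 in GPATCH1-dTAG cells. The coefficient of variation over the libraries was 16.4% with the library that stood apart and 2.69% without it. The log2 fold change in DHX35-dTAG cells went from -0.32 (-0.65 to 0.01, unadjusted p = 0.057, adjusted p = 0.71) to -0.03 (-0.19 to 0.13, adjusted p = 0.99) when that library was left out. In GPATCH1-dTAG cells it was 0.01 (-0.32 to 0.34). A processed pseudogene on chromosome 17, Rbx1-ps, matches 327 bases of the Rbx1 transcript at 99.083% identity and had 1 to 15 counts per library, against 1036 to 1848 for Rbx1.

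Nedd8, the ubiquitin-like modifier that activates cullins, was at 76.6 and 57.7 CPM in DMSO and at 61.3 and 68.0 CPM in dTAG-13 in DHX35-dTAG cells, and at 60.8 and 64.2 CPM in DMSO and at 67.4 and 65.8 CPM in dTAG-13 in GPATCH1-dTAG cells. Its highest and lowest values were thus the replicates of a single group, DHX35-dTAG cells in DMSO. The log2 fold change was -0.05 (-0.35 to 0.24) in that line and 0.09 (-0.20 to 0.39) in GPATCH1-dTAG cells, where the groups did not overlap. Without the library that stood apart it was 0.16 (-0.02 to 0.35) in DHX35-dTAG cells.

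Cops5, the subunit of the COP9 signalosome that cuts NEDD8 from cullins, was at 95.01 and 92.1 CPM in DMSO and at 84.2 and 91.2 CPM in dTAG-13 in DHX35-dTAG cells, and at 88.6 and 87.5 CPM in DMSO and at 85.5 and 89.6 CPM in dTAG-13 in GPATCH1-dTAG cells. The dTAG-13 libraries were both lower than the DMSO libraries in the DHX35-dTAG line, with a log2 fold change of -0.09 (-0.28 to 0.09, adjusted p = 0.74), and overlapped with them in the other line (-0.01). Cops5 and Ddb1 had the smallest coefficients of variation over the 8 libraries, 3.97% and 3.95%.

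The conjugating enzymes were Ube2g1, known from genetic screens as the enzyme that extends ubiquitin chains for cereblon-directed degraders, and Ube2d3, which is known to start them. Ube2g1 was at 60.7 and 72.2 CPM in DMSO and at 64.2 and 73.8 CPM in dTAG-13 in DHX35-dTAG cells, and at 63.9 and 65.8 CPM in DMSO and at 60.9 and 62.9 CPM in dTAG-13 in GPATCH1-dTAG cells. Its groups overlapped in the DHX35-dTAG line (log2 fold change 0.05, -0.20 to 0.30) and did not in the GPATCH1-dTAG line, where both dTAG-13 libraries were lower (-0.07, -0.32 to 0.18, adjusted p = 1). The value in the DHX35-dTAG line was -0.07 (-0.25 to 0.12) without the library that stood apart.

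Ube2d3 was at 389 and 490 CPM in DMSO and at 422 and 494 CPM in dTAG-13 in DHX35-dTAG cells, and at 473 and 484 CPM in DMSO and at 444 and 504 CPM in dTAG-13 in GPATCH1-dTAG cells. Replicate 1 was the lower library of each pair, and the groups overlapped in both lines. The log2 fold change was 0.06 (-0.23 to 0.35) in DHX35-dTAG cells, or -0.10 (-0.28 to 0.09) without the library that stood apart, and -0.01 (-0.30 to 0.27) in GPATCH1-dTAG cells. Processed pseudogenes with 95.536% to 97.26% identity over 435 to 448 bases (Gm13331, Gm15361 and Gm4596) had at most 114 counts in any library, against at least 4952 for Ube2d3.

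Fkbp1a encodes FKBP12, the prolyl isomerase from which the tag was made. It was at 275 and 236 CPM in DMSO and at 238 and 231 CPM in dTAG-13 in DHX35-dTAG cells, and at 254 and 246 CPM in DMSO and at 261 and 273 CPM in dTAG-13 in GPATCH1-dTAG cells. The dTAG-13 libraries lay above those in DMSO in GPATCH1-dTAG cells (log2 fold change 0.10, -0.11 to 0.30, adjusted p = 1), and the groups overlapped in DHX35-dTAG cells (-0.12, -0.33 to 0.09, adjusted p = 0.72, and -0.01, -0.16 to 0.14, without the library that stood apart). The difference between these responses was 0.22 (-0.08 to 0.51, adjusted p = 0.86) and 0.10 (-0.09 to 0.30, adjusted p = 0.97) without the library that stood apart.

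**Figure D1:**
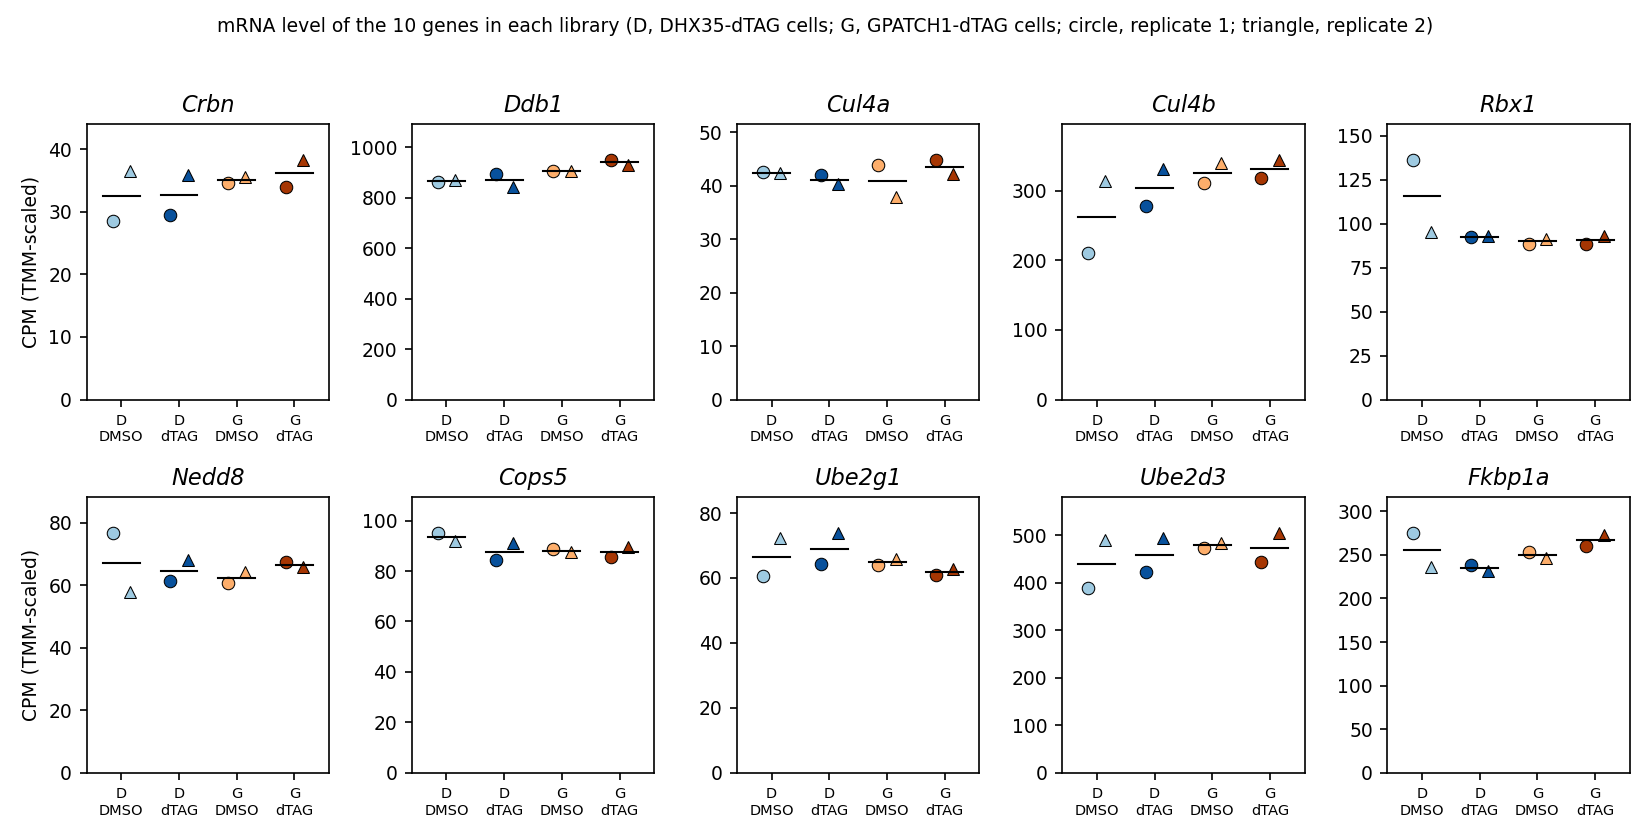
CPM of each of the 10 genes in the 8 libraries, with D for DHX35-dTAG and G for GPATCH1-dTAG cells, circles for replicate 1, triangles for replicate 2 and a line at the mean of each group of 2. Each vertical axis starts at 0, and the points of Rbx1 lie between 88.31 and 95.07 CPM except for 136.3 in replicate 1 of DHX35-dTAG cells in DMSO.

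Over the 10 genes together, the response to dTAG-13 in DHX35-dTAG cells had a median log2 fold change of -0.02, against -0.01 for all genes tested, with 5 genes above 0 and 5 below. The values ran from -0.32 for Rbx1 to 0.21 for Cul4b. Of the 10 genes, 0 passed an adjusted p of 0.05, against 0% of all genes, and 0 had an unadjusted p under 0.05, against 5.39%. In 3 of them, Cops5, Cul4a and Rbx1, the groups did not overlap and dTAG-13 was lower, while groups of 2 that did not overlap were found for 28.7% of all genes. DESeq2 and limma-voom also called 0 of the 10, against 0.00611% and 0% of all genes. DESeq2 gave 1 of the 10 an unadjusted p under 0.05, and edgeR with no expression filter gave 2. The intervals of all 10 lay within 2-fold, those of 8 within 1.5-fold, and the outermost bound was 1.57-fold.

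This count of 0 depended on which DMSO library was kept. With replicate 2 left out, so that replicate 1 stood alone for DHX35-dTAG cells in DMSO, 5 of the 10 genes passed the test, Cul4b and Ube2d3 as higher in dTAG-13 (log2 fold changes of 0.54 and 0.25) and Rbx1, Nedd8 and Fkbp1a as lower (-0.55, -0.24 and -0.22), among 28.8% of all genes. With replicate 1 left out, 0 of the 10 passed, against 0.0117% of all genes, and the values ran from -0.16 for Crbn to 0.16 for Nedd8, with 2 genes above 0 and 8 below and a median of -0.04.

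In GPATCH1-dTAG cells the spread was narrower. The median of the 10 genes was 0.03, against 0.00 for all genes, with 7 above 0 and 3 below, and the values ran from -0.07 for Ube2g1 to 0.10 for Fkbp1a. Again 0 of the 10 passed an adjusted p of 0.05 (0% of all genes) and 0 had an unadjusted p under 0.05 (2.97% of all genes). DESeq2 and limma-voom called 0 of the 10, against 0% and 0.214% of all genes. The count over all genes was 51 when either DMSO library of DHX35-dTAG cells was left out and 127 with only the 4 GPATCH1-dTAG libraries, and none of the 10 was called in those fits. The groups did not overlap in 4 of them, with Fkbp1a, Nedd8 and Ddb1 higher and Ube2g1 lower in dTAG-13, against 41.8% of all genes. All 10 intervals lay within 1.5-fold, and the outermost bound was 1.33-fold.

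Across both lines, the median was 0.02, against -0.01 for all genes, and the values ran from -0.15 for Rbx1 to 0.12 for Cul4b. With the library that stood apart left out both of these were -0.01, and the median of the 10 was -0.01, with 4 above 0 and 6 below. None of the 10 passed an adjusted p of 0.05 (0% of all genes) or had an unadjusted p under 0.05 (3.37%), and none had 4 dTAG-13 libraries that lay all above or all below the 4 in DMSO, which 2.25% of all genes had. Without the library that stood apart, Nedd8 had a log2 fold change of 0.13 (0.01 to 0.25, unadjusted p = 0.031, adjusted p = 0.72), in a fit in which 6.7% of all genes had an unadjusted p under 0.05. Without replicate 2 of DMSO-treated DHX35-dTAG cells, Cul4b (0.28) and Rbx1 (-0.27) were called, with 16.2% of all genes.

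The responses of the lines were also compared directly, as the log2 fold change in GPATCH1-dTAG cells minus that in DHX35-dTAG cells. The median difference over the 10 genes was 0.07, against 0.00 for all genes, and the values ran from -0.19 for Cul4b to 0.33 for Rbx1. None passed (0% of all genes at an adjusted p under 0.05, and 3.9% at an unadjusted p under 0.05, where 0 of the 10 did), with intervals that reached 1.74-fold. Without the library that stood apart the differences ran from -0.07 for Nedd8 to 0.20 for Crbn, with Rbx1 at 0.05 and Cul4b at 0.07, and the outermost bound was 1.42-fold, whereas without the other DMSO library of DHX35-dTAG cells the test called Rbx1, Nedd8 and Fkbp1a as higher and Cul4b as lower, with 20.9% of all genes.

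Between the lines, GPATCH1-dTAG minus DHX35-dTAG over both treatments, 109 genes passed an adjusted p of 0.05, which is 0.666% of those tested, and none of the 10 was among them. The count of 109 fell when any 1 of the 6 libraries outside the DMSO group of DHX35-dTAG cells was left out. It rose when either library of that group was left out. With only the 4 DMSO libraries it was 2, and with only the 4 dTAG-13 libraries 342. The log2 differences ran from -0.20 for Rbx1 (-0.43 to 0.04, adjusted p = 0.40) to 0.22 for Cul4b (-0.06 to 0.49, adjusted p = 0.42), with a median of 0.04 against -0.01 for all genes. At an unadjusted p under 0.05 were 0 of the 10 and 15.1% of all genes. All 10 intervals lay within 1.5-fold. Without the library that stood apart, Rbx1 was at -0.06 and Cul4b at 0.09, Fkbp1a was at 0.13 (0.04 to 0.23, unadjusted p = 0.0095, adjusted p = 0.11) and Ube2g1 at -0.16 (-0.27 to -0.04, unadjusted p = 0.013, adjusted p = 0.13), in a fit in which 19.4% of all genes had an unadjusted p under 0.05. Without replicate 2 of DMSO-treated DHX35-dTAG cells, Crbn (0.22), Cul4b (0.38) and Ube2d3 (0.18) were called as higher and Rbx1 (-0.31) as lower in GPATCH1-dTAG cells, with 29.9% of all genes.

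**Figure D2:**
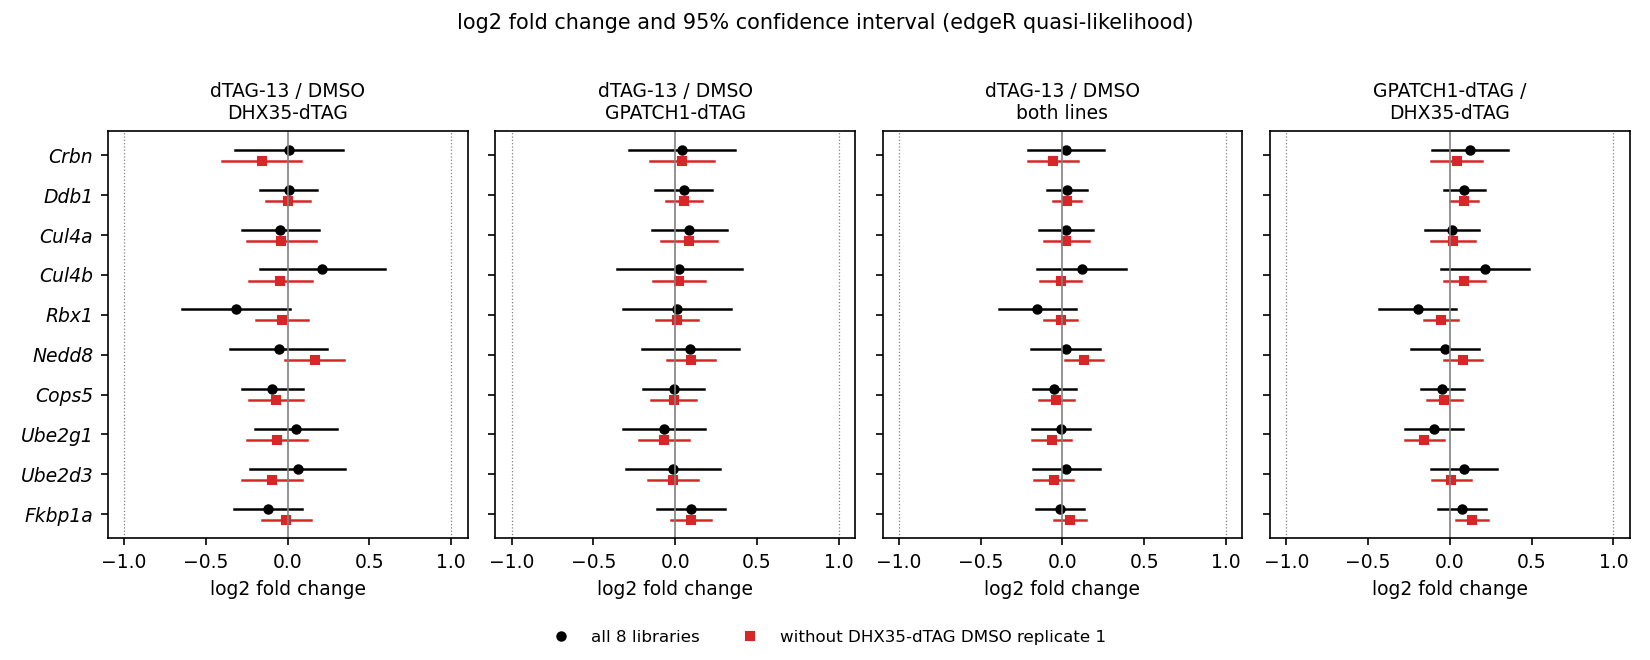
log2 fold change (horizontal axis) with its 95% confidence interval for the 10 genes in 4 comparisons, with all 8 libraries (black circles) and without the library that stood apart (replicate 1 of the DMSO group of DHX35-dTAG cells, red squares). Dotted lines mark a 2-fold change, and every interval lies between them. The points of Rbx1 and Cul4b in DHX35-dTAG cells move from -0.32 and 0.21 to -0.03 and -0.05 when that library is left out.

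In the library that stood apart, several of the 10 genes deviated in opposite directions. Relative to the mean log2 CPM of the other 7 libraries, it was 0.57 higher for Rbx1, 0.27 higher for Nedd8 and 0.15 higher for Fkbp1a, and 0.59 lower for Cul4b, 0.28 lower for Crbn and 0.28 lower for Ube2d3. The principal transcripts of the 3 higher genes are 1675, 824 and 1658 bases long, and those of the 3 lower genes 3344, 2084 and 3833 bases. Ddb1, with 4459 bases, deviated by -0.06 and Cul4a, with 3728 bases, by 0.02. Among the other 7 libraries the deviations of the 10 genes lay between -0.23 and 0.21. The part of transcript length in these values was not tested.

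**Figure D3:**
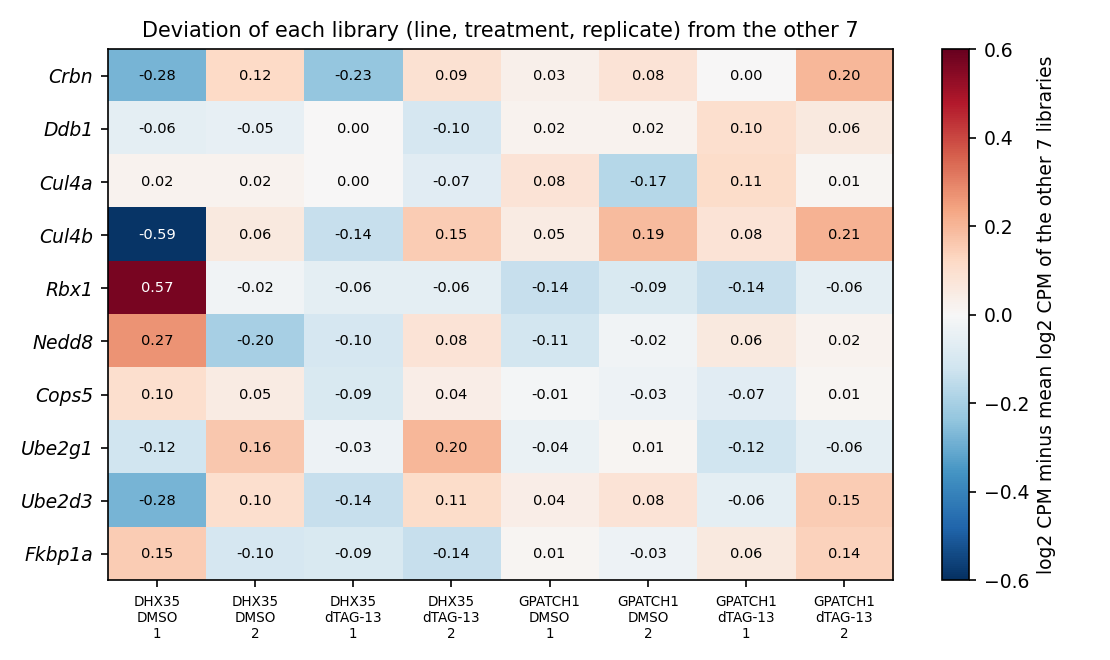
Deviation of the log2 CPM of each library (columns, by line, treatment and replicate) from the mean of the other 7, for the 10 genes (rows), with red for higher and blue for lower. The first column, replicate 1 of DHX35-dTAG cells in DMSO, holds both extremes, 0.57 for Rbx1 and -0.59 for Cul4b.

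The spread of the 10 genes over the 8 libraries was set beside that of other genes, without a test. The median coefficient of variation of the 10 was 8.12%. It was 7.85% for the 5490 tested genes with a mean CPM of at least that of Crbn, and 13.5% for all genes tested. Without the library that stood apart these medians were 6.02%, 5.29% and 10.1%.

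To compare the genes with each other, CPM was divided by the length of the principal transcript of the annotation, in kilobases. On this scale Ddb1 was highest at 200.6 ± 7.93 CPM per kb (SD, n = 8 libraries), followed by Fkbp1a at 151.9 ± 10.1 and Ube2d3 at 120.7 ± 10.5. Cul4b (91.49 ± 13), Nedd8 (79.17 ± 7.05), Rbx1 (58.08 ± 9.51) and Cops5 (52.54 ± 2.09) came next. The lowest were Ube2g1 at 17.18 ± 1.29, Crbn at 16.36 ± 1.63 and Cul4a at 11.25 ± 0.577 CPM per kb. On this length the widest step, of 3.06-fold, lay between Cops5 and Ube2g1, and the adaptor was 12.3-fold above the receptor in mean level.

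The ranges over the 8 libraries overlapped for 5 of the neighbours in this order, from Ube2d3 down to Cops5 and between Ube2g1 and Crbn. Without the library that stood apart only Rbx1 with Cops5 and Ube2g1 with Crbn overlapped. The order and the distances also depend on the length used. Divided by the bases of all annotated exons of a gene together, Ube2d3, whose exons cover 24499 bases against 3833 in the principal transcript, moved from the third to the seventh place, Cul4b to the second, and Crbn came last at 4.884 CPM per kb. On that length Cops5 was 1.65-fold above Ube2g1, with Rbx1 and Ube2d3 between them, and Ddb1 was 28.6-fold above Crbn.

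Ratios within a library were taken on the length of the principal transcript. Cul4b exceeded Cul4a by a ratio of 8.17 ± 1.37 (SD, n = 8), with the lowest value, 5.54, in replicate 1 of DHX35-dTAG cells in DMSO and 7.37 to 10 in the others. The ratio of Ddb1 to Crbn was 12.4 ± 1.29, between 11 and 14.2, and that of Fkbp1a to Crbn was 9.38 ± 1.30. Ube2d3 exceeded Ube2g1 by a ratio of 7.03 ± 0.535, with 6.38 to 6.75 in DHX35-dTAG cells and 7.25 to 7.98 in GPATCH1-dTAG cells, a difference in ratio that was not tested. By the bases of all annotated exons these ratios were 12.1 ± 2.03 for Cul4b to Cul4a, 28.8 ± 3 for Ddb1 to Crbn, 13.5 ± 1.88 for Fkbp1a to Crbn and 1.32 ± 0.101 for Ube2d3 to Ube2g1 (SD, n = 8), so their size rests on the length chosen. These are ratios of mRNA per length, and protein amounts were not measured in these tables.

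**Figure D4:**
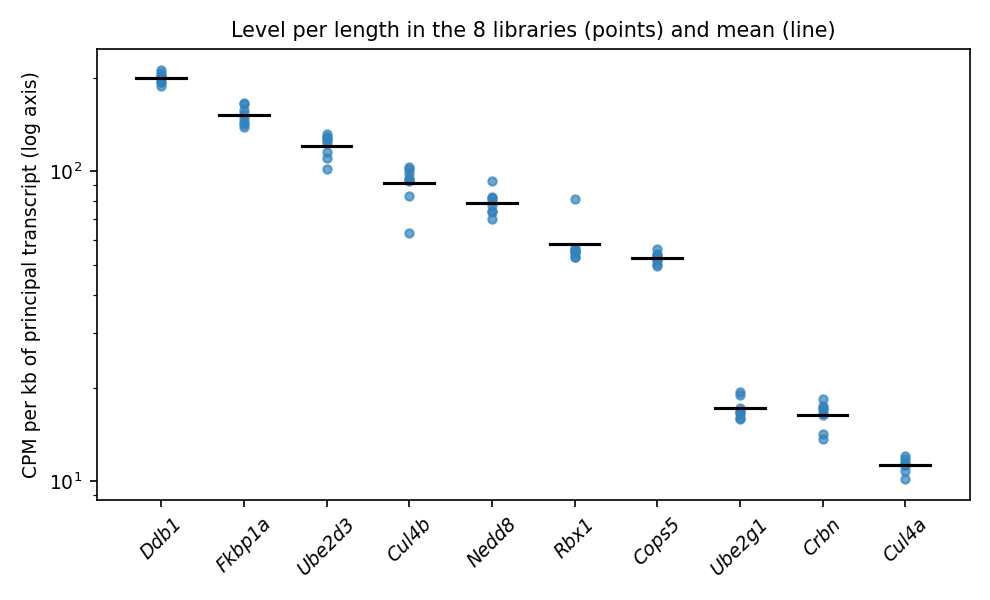
Level of the 10 genes in CPM per kb of principal transcript (vertical log axis), ordered by the mean over the libraries, with a point for each of the 8 libraries and a line at the mean. Means run from 200.6 for Ddb1 to 11.25 for Cul4a, with a gap of 3.06-fold between Cops5 and Ube2g1 that is 1.65-fold by the bases of all annotated exons.

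The 10 genes lie on 10 different chromosomes. Besides Crbn, 4 of them share exon bases with a gene on the other strand, Ddb1 with Tkfc (328 bases), Nedd8 with Gmpr2 (184 bases), Cops5 with Cspp1 (182 bases) and Ube2d3 with 4930539J05Rik (198 bases). Of these partners only Cspp1, at 66.46 to 85.61 CPM, was near the level of its neighbour, and for these 5 genes reads of the other strand could be counted if strand was not used.

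Some of the 10 genes went up and down together over the libraries, and others moved oppositely. The log2 CPM of Crbn and Ube2d3 had a Pearson correlation of 0.97 over the 8 libraries (0.94 without the library that stood apart), that of Crbn and Cul4b 0.89 (0.90) and that of Cul4b and Ube2d3 0.92 (0.84). Other pairs went in opposite directions, with -0.83 (-0.79) for Ube2g1 and Fkbp1a and -0.66 (-0.95) for Ddb1 and Ube2g1. Some depended on the library that stood apart, as Rbx1 with Nedd8 at 0.72 with it and -0.32 without it, and Cul4b with Rbx1 at -0.89 and 0.03. The points of each pair share their libraries, with their depth and composition. These correlations are given as a description, with no share over pairs of other genes beside them. Over all genes tested, those most like Crbn were Ttc12 (r = 0.988, 0.979 without that library), Usp14 (0.986, 0.987) and Gm36445 (0.978, 0.961), and those most like Fkbp1a were Pck2 (0.96, 0.962), Mettl17 (0.951, 0.953) and Gm30165 (0.95, 0.988).

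The wider pathway was examined through 11 lists that hold 96 further genes, of which 95 were tested and Ube2d2b was not. Of these 95 genes, 0 passed an adjusted p of 0.05 in any of the 5 comparisons. At an unadjusted p under 0.05 were 2 of them in the DHX35-dTAG line (2.11%, against 5.39% of all genes), Cops9 and Elob, 0 in GPATCH1-dTAG cells, and 7 between the lines (7.37%, against 15.1%). With the library that stood apart left out these numbers were 5 (5.26%, against 4.6%), 2 (2.11%, against 8.41%) and 12 (12.6%, against 19.4%), and neither Cops9 nor Elob was among them in the DHX35-dTAG line. In the same fit, 5 of the 95 were called between the lines, where 5.29% of all genes were. They were Nae1 (log2 difference 0.22), a subunit of the enzyme that activates NEDD8, the CRL4 receptor Brwd3 (0.21), the ubiquitin ligase Arih2 (0.20) and Fkbp9 (0.24), which were higher in GPATCH1-dTAG cells, and glutamine synthetase, Glul (-0.16), which was lower (adjusted p between 0.0092 and 0.046). The medians of the lists also moved with that library. In DHX35-dTAG cells the 11 medians ran from -0.18 to 0.09 with it and from -0.04 to 0.07 without it, between the lines from -0.09 to 0.14 and from -0.02 to 0.08, and in GPATCH1-dTAG cells from -0.01 to 0.12 both ways. In the lists that follow, the medians without it are given for the DHX35-dTAG line and between the lines.

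Of the 11 genes of NEDD8 conjugation (Nedd8 included), the highest per length was Rnf7, the RING partner of CUL5, at 162.6 ± 22.3 CPM per kb (SD, n = 8), and the lowest Dcun1d2 at 3.674 ± 0.425. Their median log2 fold change on dTAG-13 was -0.05 with DHX35 tagged and 0.03 with GPATCH1 tagged, and their median difference between the lines was -0.03, while without the library that stood apart the first was -0.02 and the last 0.02. The 10 subunits of the COP9 signalosome ran from Cops2 at 84.51 ± 13.7 CPM per kb down to Cops7b at 8.968 ± 0.801, with medians of 0.07, 0.06 and 0.06 (0.01 in DHX35-dTAG cells and 0.02 between the lines without that library). The smallest subunit, Cops9, named because its value was the outermost of the list, had a log2 fold change of -0.78 (-1.53 to -0.03, unadjusted p = 0.044, adjusted p = 0.71) in DHX35-dTAG cells. It was at 35.85 CPM in the library that stood apart, against 14.75 CPM in the other DMSO library and 14.33 and 15.01 CPM in dTAG-13, and without that library its log2 fold change was -0.01 (-0.29 to 0.27, adjusted p = 1). In GPATCH1-dTAG cells it was 0.20 (-0.57 to 0.97). Of 5 genes of cullin exchange and NEDD8 processing, Cand1, which swaps receptors on cullins, was highest at 63.35 ± 2.26 CPM per kb and Senp8 lowest at 2.153 ± 0.37, with medians of -0.01, 0.01 and 0.06 (0.02 and 0.01 without that library).

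The 24 receptors and related subunits of ligases with DDB1 (Crbn included) ran from Dtl, which acts in DNA replication control, at 53.58 ± 4.16 CPM per kb to Dcaf10 at 3.06 ± 0.252. Their medians were 0.02, 0.01 and 0.02 in the order above, or -0.03 in DHX35-dTAG cells and -0.02 between the lines without the library that stood apart. Among 8 cullins, Cul4b was the highest and Cul9, at 0.3947 ± 0.105 CPM per kb, the lowest, with medians of 0.04, 0.02 and 0.14. All 8 cullins had a positive difference between the lines, 0.01 to 0.23, and 0 passed. The sign was not kept under all alternatives, as Cul4a ranged from -0.05 to 0.08 and was negative in 4 of 17. Without that library the differences were again all positive, 0.02 to 0.09 for 7 of them and 0.39 for Cul9, with a median of 0.08, and 0 passed, while in DHX35-dTAG cells the median was -0.04 and 0 of the 8 log2 fold changes were positive, against 4 with it. The enzymes that activate, conjugate or pass on ubiquitin (11 of 12 tested) ran from Cdc34 at 170.7 ± 25.2 to Ube2g2 at 10.17 ± 0.835 CPM per kb, with medians of -0.04, -0.01 and 0.07 (-0.03 and 0.04 without it). Of the 4 ubiquitin genes, the ribosomal fusion gene Rps27a was highest at 508.0 ± 66.6 CPM per kb, with medians of -0.09, 0.05 and -0.03 (0.07 and 0.04 without it).

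The FKBP family holds 15 genes with Fkbp1a, from Fkbp4, a co-chaperone of HSP90, at 234.6 ± 28.9 CPM per kb to Fkbp14 at 1.316 ± 0.245. On dTAG-13, 6 of the 15 had a positive log2 fold change in DHX35-dTAG cells (median -0.08) and 12 in GPATCH1-dTAG cells (median 0.12), and 0 passed the test of either response or of their difference. Of the 15, 10 were positive in DHX35-dTAG cells without the library that stood apart, with a median of 0.06, and 12 in GPATCH1-dTAG cells. Between the lines the median was -0.03 with that library and 0.08 without it. The outermost gene with it, Fkbp2, was at -0.55 (-1.04 to -0.06, adjusted p = 0.29), and at -0.22 (-0.46 to 0.02, adjusted p = 0.31) without it. The p97 segregase and its cofactors (6 genes), which pull ubiquitinated proteins from complexes, ran from Vcp at 155.3 ± 2.57 to Faf2 at 16.93 ± 1.0 CPM per kb, with medians of -0.04, 0.06 and 0.00 (-0.02 and -0.01 without it).

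The VHL ligase, used by other dTAG molecules in place of cereblon, holds 5 genes with Rbx1, from Elob at 244.2 ± 19.4 to the receptor Vhl at 8.072 ± 1.18 CPM per kb, with medians of -0.18, 0.00 and -0.09. The first was -0.01 and the last -0.02 without the library that stood apart. Elob had a log2 fold change of 0.23 (0.02 to 0.45, unadjusted p = 0.038, adjusted p = 0.71) in DHX35-dTAG cells, and of 0.13 (-0.03 to 0.29, unadjusted p = 0.10, adjusted p = 0.99) without that library. Last, 6 genes whose proteins are reported targets of cereblon, with or without a drug, ran from Sall4, a stem cell transcription factor, at 132.4 ± 7.06 to Meis2 at 17.3 ± 2.46 CPM per kb, with medians of 0.09, 0.04 and 0.05 (0.02 and 0.01 without it). Sall4 had log2 fold changes on dTAG-13 of 0.14 (-0.04 to 0.33) in DHX35-dTAG cells, or 0.08 (-0.06 to 0.22) without that library, and 0.07 (-0.12 to 0.26) in GPATCH1-dTAG cells. These tables give mRNA, and a loss of protein would not be seen in them.

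**Figure D5:**
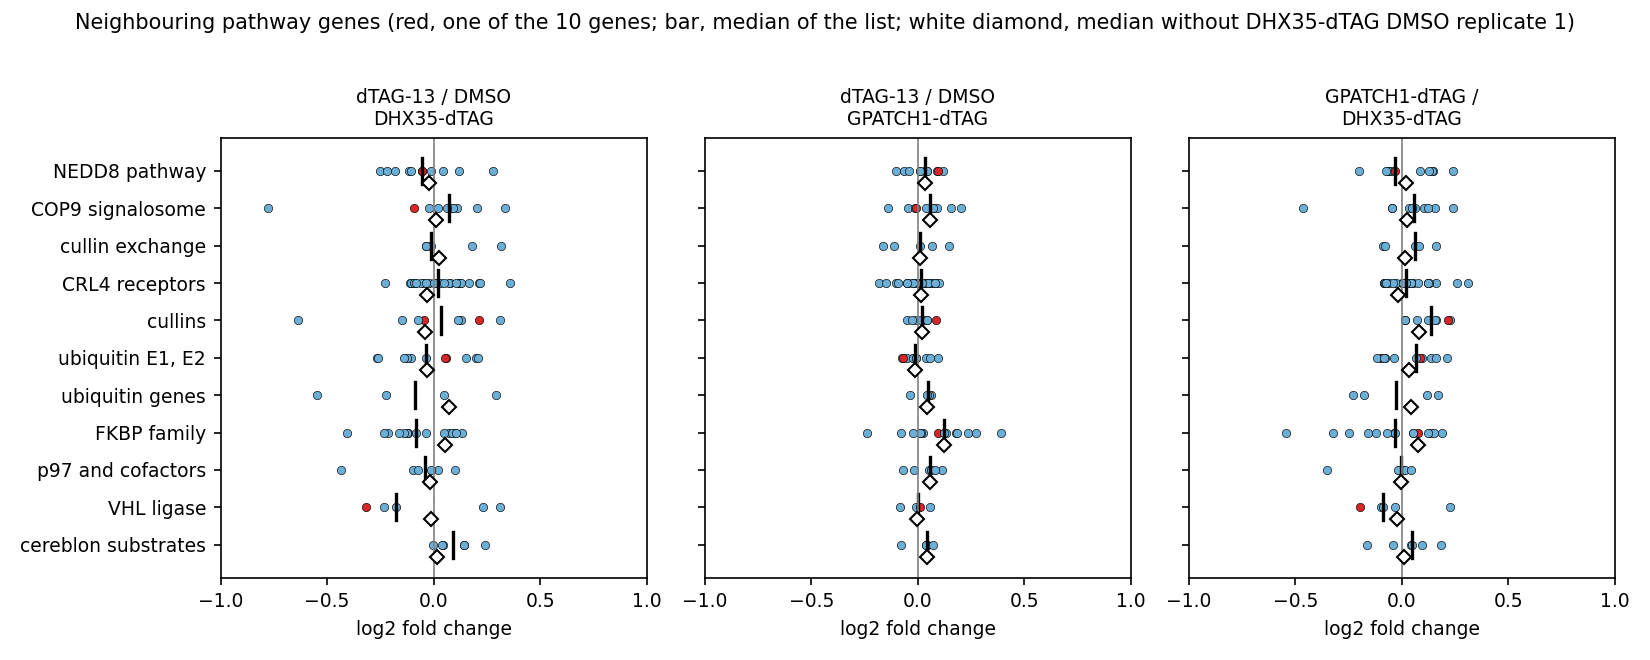
log2 fold change (horizontal axis) of each tested gene of the 11 lists (rows) on dTAG-13 in each line and between the lines, with red points for those of the 10 genes that a list shares a bar at the list's median and a white diamond at its median when DMSO replicate 1 of the DHX35-dTAG line is left out. Bars lie between -0.18 and 0.14 and diamonds between -0.04 and 0.12, and the outermost point, Cops9 at -0.78 in DHX35-dTAG cells, is at -0.01 without that library.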

How the data were processed

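RNA-seq of 8 libraries was analysed, 2 in each of 4 groups taken from the sample labels. The authors added human DLD-1 RNA to the extracted RNA as a spike-in, then depleted ribosomal RNA and prepared stranded libraries. They deposited raw counts per gene after FastQC 0.11.9, Trim Galore 0.6.6 and STAR 2.7.5c. The spike-in was not used here, and TMM scaling does not show a change shared by all genes. The submitters' processing notes also name DESeq2 1.26.0, with no role. The genomes were mm10 and hg19, and the program, annotation and strand setting of the counting are not given in the sources used here.

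The deposited counts were tested in R 4.3.3 by edgeR 4.0.16 (glmQLFTest after glmQLFit, TMM, filterByExpr, 1 term per group, all 8 libraries, Benjamini-Hochberg adjustment over 16371 genes, threshold 0.05). Standard errors are log2 fold changes over the root of F, and 95% confidence intervals use the total degrees of freedom. edgeR's common dispersion was 0.0125, which is a spread of 11.2% between replicates. Intervals cover the spread between these libraries. Library sizes after TMM scaling ran from 11329260 to 16169847, a range of 1.43-fold, and the counts of a gene set its precision.

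Lengths, positions and codons come from GENCODE M21, and copies are matches of at least 150 bases at 95% identity. Correlations use log2 CPM with a prior count of 2. The 10 genes, the lists of pathway and marker genes and the tests were chosen with earlier results of these data known, so no test of a list was made. Named were the 10 genes, both targets, every list gene with an adjusted p under 0.05, the highest and lowest of each pathway list per length, and the 3 genes most correlated with Crbn and with Fkbp1a, except where a value is said to be the outermost. One gene that this rule names is not reported here. Genes with an unadjusted p under 0.05 were named after their values were seen. Of the marker genes, Gata3 was called between the lines (log2 difference 1.04, adjusted p = 0.032).

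The alternatives were DESeq2 1.42.0, its size factors in edgeR, limma-voom 3.58.1 with quality weights, no filter, at least 10 counts in every library, library sizes without the 2 genes of highest count, a replicate block, fits on the libraries compared alone, and fits without each library. Medians of the lists with DMSO replicate 1 of the DHX35-dTAG line left out were added after the data were seen. The labels give replicate numbers no shared origin and the correlations of same-numbered libraries were not all above 0.1, so the numbers were not taken as pairs, and the 2 libraries of a group were not duplicates (chi-square per gene 4.93 to 121).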

Additional observations from a re-analysis of the deposited data

Results flagged for a closer look

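Dixon's criterion was applied to 40 sets of 4 libraries, the libraries of a line or of a treatment for each of the 10 genes, and 5 stood out, where chance flags about 1 in 20. In replicate 1 of DHX35-dTAG cells in DMSO, Rbx1 was at 136.3 CPM, far above the next library both within the line and within DMSO (95.07 CPM in each). The same library was the lowest of the DMSO libraries for Ube2d3, at 389 CPM against 473.1 CPM in the next, and the highest of the DHX35-dTAG libraries for Fkbp1a, at 274.9 CPM against 238.5 CPM. Among the dTAG-13 libraries, replicate 1 of GPATCH1-dTAG cells was the lowest for Rbx1, at 88.31 CPM against 92.66 CPM in the next.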

How the results depend on the processing

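None of the 10 genes passed the test in any of the 5 comparisons under the 11 alternatives that kept every library of the groups compared, where these could be fitted, and 50 values of single genes were tracked, of which 23 kept their sign under all alternatives run. When 1 library was left out at a time, some of the 10 genes were called in a single fit, in every comparison except GPATCH1-dTAG cells. That fit dropped the second DMSO library of the DHX35-dTAG line. The library that stood apart was then alone in its group and was assumed to vary like the others. Many other genes were called in the same fit, and their shares are given above with each comparison. The median of the 10 genes ranged from -0.074 to -0.009 in DHX35-dTAG cells and from -0.03 to 0.063 in GPATCH1-dTAG cells, where it was negative without replicate 2 in dTAG-13. With only the 4 DMSO libraries the median difference between the lines was -0.031. The causes were not tested. With the replicate block, 0 of the 10 genes were called in each comparison, and the counts over all genes were 0, 0, 0, 2 and 132. Correlations between the deviations of same-numbered libraries were 0.037 to 0.23.

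Counts over all genes, in the order DHX35-dTAG, GPATCH1-dTAG, both lines, difference of responses and lines, were 0, 0, 0, 0 and 109, against 345, 21, 85, 140 and 890 with no filter, 1, 0, 3, 9 and 138 with DESeq2, and 0, 35, 1, 0 and 156 with limma-voom. With only the 4 libraries of the line compared the counts for dTAG-13 were 1 with DHX35 tagged and 127 with GPATCH1 tagged. With 2 libraries a group, the outermost bounds of the intervals were 1.57-fold in DHX35-dTAG cells and 1.33-fold in GPATCH1-dTAG cells. These bounds are not limits of detection, and no such limit was worked out.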
